A study of Mus musculus with 4 samples.

Results

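The Fanconi anemia core complex and the FANCD2-FANCI (ID) complex were examined through the transcripts of 10 genes, Fanca, Fancb, Fancc, Fancd2, Fance, Fancf, Fancg, Fanci, Fancl and Fancm. The genes were chosen by name, and each had 1 row among the 23420 gene symbols of the expression table. Fancb is X-linked and the other 9 genes are autosomal. In these libraries Fancl was the most abundant member, Fance and Fancf were close to 0, and Fancb was nearly absent in control cells and present at a low level after inhibition of the ATR kinase. None of the 6 autosomal members expressed highly enough to be tested was called as changed.

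The Fanconi anemia pathway repairs DNA interstrand crosslinks. Its core complex is a ubiquitin ligase built from the subcomplexes FANCB-FANCL-FAAP100, FANCA-FANCG-FAAP20 and FANCC-FANCE-FANCF, and FANCM anchors it to DNA. The ligase attaches ubiquitin to FANCD2 and FANCI, ATR phosphorylates several proteins of the pathway, and Fanconi anemia proteins are known to gather on the X and Y chromosomes of meiotic cells in males.

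RNA-seq was done on pachytene spermatocytes, cells in meiotic prophase, that were isolated by FACS from wild-type C57BL/6 mice of 23 weeks of age. The sorted cells were cultured for 24 h with DMSO (Ctrl, 2 libraries) or with 10 µM AZ20, an ATR inhibitor (AZ20, 2 libraries). The comparison asks how ATR signaling bears on the silencing of the X and Y chromosomes, called meiotic sex chromosome inactivation (MSCI), in cells where it is already established. Each library was made from 15000 cells, each mouse gave cells to both conditions, and neither group carried a mutation or a transgene. The labels give a culture temperature of 34 °C and the methods 32 °C.

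Depth, as recovered from the deposited TPM values (transcript abundance per gene length, scaled to the same total in each library), was 14526278 and 16498132 gene reads for Ctrl and 21048855 and 19277981 for AZ20. All 10 pachytene markers exceeded 1 TPM, with a summed level of 11509 to 11560 TPM in Ctrl and 11693 to 11763 TPM in AZ20. The 7 round spermatid markers summed to 71.7 to 178 TPM in Ctrl and 131 to 354 TPM in AZ20, and their part in the results below was not tested. None of 7 Sertoli cell markers exceeded 1 TPM, and the Sertoli genes Sox9 and Wt1 were at 0 in all libraries. The 7 spermatogonia markers summed to 7.99 to 20.5 TPM in Ctrl and 12.7 to 15 TPM in AZ20, and 2, Uchl1 and Gfra1, exceeded 1 TPM. So did 1 of 5 Leydig cell markers (Star), 1 of 4 macrophage markers (Cd68) and 1 of 3 peritubular myoid cell markers (Acta2), each in at least 1 library. In bulk RNA, a change in the number of cells of a type and a change in RNA per cell cannot be told apart. With 2 libraries per group, an exact permutation test cannot go below p = 0.333, so differences were tested with limma across all 10316 genes with a mean above 1 TPM in either group, and a call needed a 2-fold or larger change on log2(TPM + 1) together with an adjusted p (Benjamini-Hochberg) under 0.05. For genes of low TPM this scale understates the change. P-values are two-sided.

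The DNA between Fancb and its neighbour is shown first because both genes start at its edges. On the X chromosome, 216 bases separate the start of Fancb on the plus strand from that of Mospd2, a membrane protein gene on the minus strand (starts from GENCODE, sequence from RefSeq, GRCm38.p6). The 250 bases before the RefSeq start of Fance, of which 11 lie inside the GENCODE gene, are shown beside it because they are rich in CpG, while Fance transcripts were almost absent. Capitals mark CCAAT and GGGCGG, searched on both strands, so that they also read as ATTGG and CCGCCC.
Fancb, chrX:164980376-164980591, plus strand: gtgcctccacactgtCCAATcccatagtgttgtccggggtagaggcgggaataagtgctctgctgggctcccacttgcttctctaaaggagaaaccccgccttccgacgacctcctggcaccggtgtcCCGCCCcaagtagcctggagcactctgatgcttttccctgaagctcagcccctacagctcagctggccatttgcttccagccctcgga
Fance, chr17:28313280-28313529, plus strand: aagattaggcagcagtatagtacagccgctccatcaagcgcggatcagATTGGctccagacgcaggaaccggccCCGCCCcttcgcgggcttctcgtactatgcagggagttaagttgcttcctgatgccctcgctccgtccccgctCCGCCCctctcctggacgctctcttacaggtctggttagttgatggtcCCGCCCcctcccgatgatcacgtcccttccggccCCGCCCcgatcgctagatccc
The stretch at Fancb held 8 CpG dinucleotides, 1 CCAAT and 1 GGGCGG, and the stretch at Fance held 21 CpG, 1 CCAAT and 4 GGGCGG.

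FANCL carries the ligase activity of the core complex. Fancl (chr11:26386135-26471876, plus strand) was at 53.3 and 49.4 TPM in Ctrl and at 63.1 and 49.3 TPM in AZ20. It was the highest member in every library and made up 68.5 to 77% of the summed TPM of the 8 core genes. The AZ20 range contained both Ctrl values, and the difference in log2(TPM + 1) was 0.12 ± 0.20 (SE; 95% interval -0.37 to 0.60; adjusted p = 0.928).

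FANCB is a scaffold that joins FANCL in the catalytic module, and Fancb (chrX:164980592-164997272, plus strand) had the lowest mean in Ctrl, close to those of Fancf and Fance. It was at 0 and 0.0587 TPM in Ctrl and at 0.512 and 1.13 TPM in AZ20. Both AZ20 libraries were above both Ctrl libraries. Its mean of 0.823 ± 0.44 TPM (SD, n = 2) in AZ20 stood against 0.0293 ± 0.0415 TPM (SD, n = 2) in Ctrl, and log2(TPM + 1) differed by 0.60 in pair 1 and by 1.01 in pair 2. Because neither mean exceeded 1 TPM, Fancb was not among the genes tested.

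In reads, Fancb had 0 and 2 in Ctrl and 22 and 44 in AZ20. The 0 in Ctrl replicate 1 allows up to 3 reads, or 0.101 TPM. Pooled over libraries and scaled to depth, the read rate was 25.4 times higher in AZ20 (95% exact interval 6.76 to 214). TPM alone does not fix the whole-number scale of the reads, and on the next smaller scale Fancb would have 0 and 1 reads under DMSO against 11 and 22 under AZ20, which leaves the ratio at 25.4 and widens the interval to 4.25 to 1033. Such intervals cover counting error only, and amplified reads are not independent molecules. They compare these libraries and are no test of the conditions.

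Without the filter on expression, limma gave Fancb a difference of 0.80 in log2(TPM + 1) with an unadjusted p of 0.0123 and an adjusted p of 0.398. With the replicate block added, limma gave an unadjusted p of 0.00168 and an adjusted p of 0.0689. On the recovered reads, limma with voom weights gave a log2 change of 4.39, an unadjusted p of 0.043 and an adjusted p of 0.652. Without AZ20 replicate 1, the remaining AZ20 library alone let Fancb pass the filter, with a difference of 1.05. These 4 fits share the same libraries, so they are not separate support, and Fancb was called in none of them. Without the filter, 1063 of 16857 genes were higher and 205 lower at an unadjusted p under 0.05 by limma. Among the 341 X-linked genes tested, 63.3% were called higher in AZ20, 91.2% had both AZ20 values above both Ctrl values, and their median difference was 2.61. Of these, 289 passed the filter through AZ20 alone and were therefore selected for a higher level there, and of the 52 with a mean above 1 TPM in Ctrl, 44.2% were called higher.

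FANCA and FANCG form the subcomplex that takes part in loading the core complex onto chromatin. Fancg (chr4:43002343-43010506, minus strand) was at 12.5 and 8.36 TPM in Ctrl and at 17.7 and 16.2 TPM in AZ20. Both AZ20 values were above both Ctrl values, and the mean was 1.63-fold higher. The difference in log2(TPM + 1) was 0.67 ± 0.26 (SE), with a 95% interval of 0.06 to 1.29, an unadjusted p of 0.0355 and an adjusted p of 0.49 by limma. Fancg was the only tested member with an unadjusted p under 0.05, a level reached by 9.16% of all tested genes and 6.34% of the autosomal ones, and it was not called. With 1 library left out, its difference ran from 0.41 (without Ctrl replicate 2) to 0.94 (without Ctrl replicate 1). Each of these fits leaves 1 library in a group, and the size of the difference was not stable.

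Fanca (chr8:123268300-123318576, minus strand) was far lower than its partner Fancg, at 0.393 and 0.764 TPM in Ctrl and at 0.576 and 1.01 TPM in AZ20. The groups overlapped, the exact permutation test gave p = 0.667, and the gene stayed below the filter. In both groups replicate 2 was above replicate 1, and log2(TPM + 1) was higher with AZ20 by 0.18 in pair 1 and 0.19 in pair 2. The exons of Fanca share 920 bases with Zfp276 on the other strand, and since the library kit does not mark strand, reads in that stretch cannot be assigned to 1 gene by strand. The same holds for Fancl (462 bases shared with Vrk2), Fancc (185 with 2010111I01Rik), Fancf (253 with Gas2) and Fanci (921 with Polg).

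The subcomplex of FANCC, FANCE and FANCF links the core complex to FANCD2. Fancc (chr13:63285043-63497278, minus strand) was at 4.25 and 4.10 TPM in Ctrl and at 2.82 and 2.93 TPM in AZ20. Both AZ20 values lay below both Ctrl values, and the replicates of each group were close to each other. The mean was 0.689-fold that of Ctrl, the difference in log2(TPM + 1) was -0.42 ± 0.26 (SE), and its 95% interval of -1.04 to 0.20 included 0 (adjusted p = 0.742 by limma).

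Fance, the member of this subcomplex that contacts FANCD2, and Fancf, an adaptor of the core complex, were hardly detected. Fance (chr17:28313519-28326572, plus strand) was at 0 and 0.258 TPM in Ctrl and at 0 in both AZ20 libraries. The single value above 0 stands for 6 reads by the most likely gene length, which had a weight of only 0.418. With reads in 1 library the TPM does not fix that number. By that length, a count of 0 allowed up to 3 reads, or 0.102 to 0.147 TPM, in the other libraries. Fancf (chr7:51860577-51862267, minus strand) was at 0.117 and 0 TPM in Ctrl and at 0 and 0.0451 TPM in AZ20, which were 2, 0, 0 and 1 reads. Fance thus had reads in 1 Ctrl library and none in AZ20. The 95% exact interval of its read-rate ratio, 0 to 0.653, covers counting error only and rests on the uncertain 6 reads. The value came from a single library, Ctrl replicate 1 was also at 0, and the exact permutation test gave p = 1. For Fancf the interval of the ratio was 0.00652 to 7.39, and no difference was detectable at this depth.

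FANCM is a DNA translocase that anchors the core complex. Fancm (chr12:65075603-65132058, plus strand) was at 0.65 and 1.19 TPM in Ctrl and at 0.867 and 1.31 TPM in AZ20. The groups overlapped, replicate 2 was the higher library in both, and the difference in log2(TPM + 1) was 0.13 ± 0.34 (SE; adjusted p = 0.958). Fancm passed the filter through its AZ20 mean alone, 1.09 TPM against 0.922 TPM in Ctrl.

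FANCD2 and FANCI are the paired substrates of the ligase. Fancd2 (chr6:113531682-113597017, plus strand) was at 9.33 and 10.5 TPM in Ctrl and at 9.60 and 10.5 TPM in AZ20. These were the closest groups of any tested member, with a difference in log2(TPM + 1) of 0.02 ± 0.23 (SE) and a 95% interval of -0.52 to 0.56 (adjusted p = 0.993). Fanci (chr7:79391929-79450264, plus strand) was at 2.79 and 2.21 TPM in Ctrl and at 3.32 and 3.25 TPM in AZ20, so that both AZ20 values were higher. Its difference of 0.30 ± 0.28 (SE) had a 95% interval of -0.36 to 0.95 (adjusted p = 0.834). Fancd2 exceeded its partner in every library, by 3.34 and 4.73 times in Ctrl and by 2.89 and 3.22 times in AZ20.

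**Figure D1:**
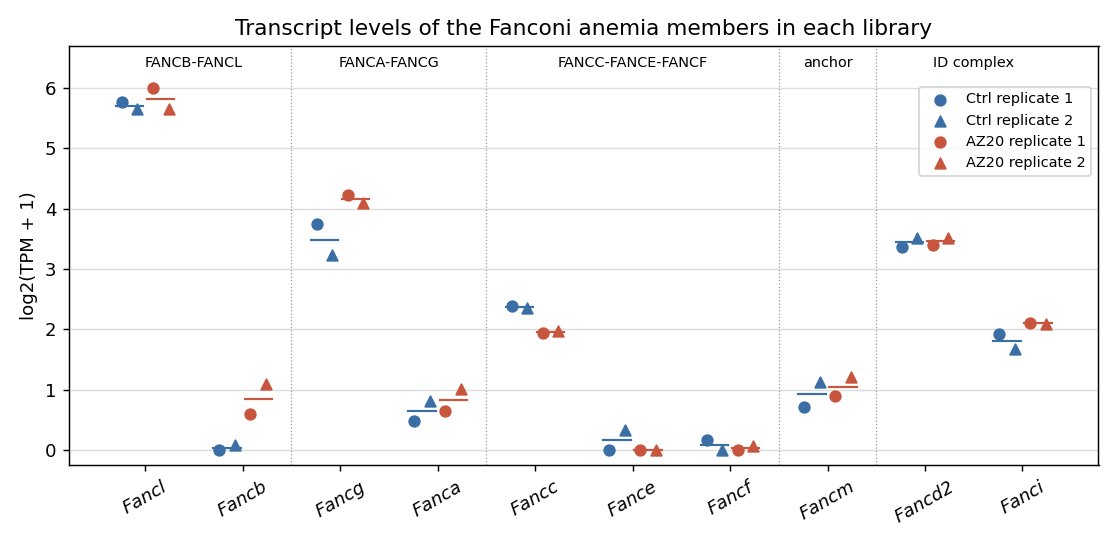
Levels of the 10 members as log2(TPM + 1) in the 4 libraries, grouped by subcomplex, with blue for Ctrl, red for AZ20, circles for replicate 1, triangles for replicate 2 and lines at the group means. Fancl lies above all other members, Fance and Fancf lie near 0, and the AZ20 points of Fancb, at 0.512 and 1.13 TPM, lie above its Ctrl points at 0 and 0.0587 TPM.

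Of the 10 members 6 passed the filter, and 0 were called higher, against 2.28% of all tested genes, and 0 were called lower, against 0.0485%. Among the autosomal genes alone, 0.101% were called higher and 0.0503% lower. The AZ20 values lay above the Ctrl values for 2 of the 6 tested members, against 26.4% of all tested genes and 24.1% of the autosomal ones, and below them for 1, against 11.7% and 12.2%. The median difference in log2(TPM + 1) of the 6 was 0.12, beside 0.07 over all tested genes and 0.06 over the tested autosomal genes. With quantile normalization it was -0.04. Without 1 library, the median of the autosomal members in the fit ran from 0.06 (Ctrl replicate 1 left out) to 0.29 (AZ20 replicate 2 left out). The latter fit held only 5 autosomal members, without Fancm, so its median is not of the same genes.

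**Figure D2:**
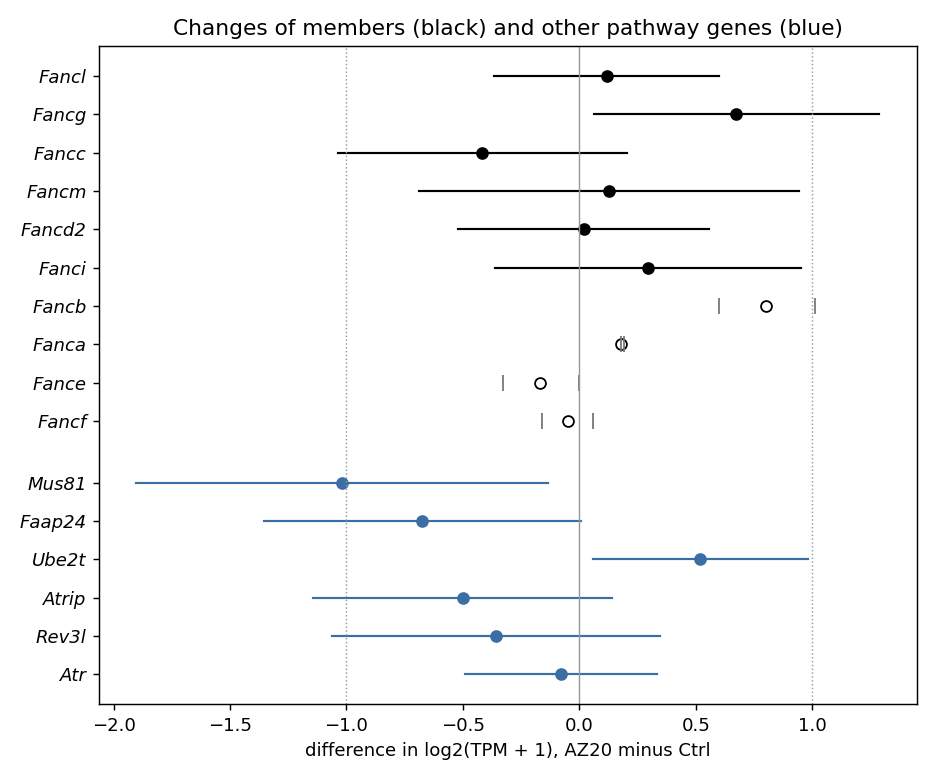
Differences in log2(TPM + 1), AZ20 minus Ctrl, of members (black) and of other pathway genes (blue). Filled points carry 95% intervals from limma, open points are members below the filter, with ticks at the differences of pair 1 and pair 2, and dotted lines mark a 2-fold change. Fancg at 0.67 is the tested member with the highest value and Fancc at -0.42 the one with the lowest.

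The order of the levels, from the means per gene length, was Fancl, Fancg, Fancd2, Fancc, Fanci, Fancm, Fanca, Fance, Fancf and Fancb in Ctrl. The neighbours Fancg and Fancd2, Fancm and Fanca, Fance and Fancf, and Fancf and Fancb had overlapping values there. In AZ20 the order was Fancl, Fancg, Fancd2, Fanci, Fancc, Fancm, Fancb, Fanca, Fancf and Fance, with overlap between Fancm and Fancb, Fancb and Fanca, and Fancf and Fance. Fancb had the lowest mean in Ctrl but overlapped Fanca and Fancm in AZ20, and Fanci and Fancc stood in opposite order in the 2 groups.

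To describe whether a member moved apart from its complex, each core gene was set against the mean log2(TPM + 1) of the other 7 core genes in the same library. Fancb lay below that mean, at -1.90 and -1.85 in Ctrl and at -1.36 and -0.91 in AZ20. The value was higher with AZ20 by 0.53 in pair 1 and 0.94 in pair 2, a mean of 0.74, and the exact permutation test gave p = 0.333, the smallest it can give. The separation between the Ctrl replicates was 0.05 and that between the AZ20 replicates 0.46.

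By this measure the values of 4 autosomal core members, Fancg, Fancc, Fance and Fancf, also did not overlap between the groups. No share over all genes was computed for the measure, so the count is not a result about the complex. Among all tested genes, both AZ20 values in TPM lay above both Ctrl values for 26.4% and below them for 11.7%. In TPM the values of Fance and Fancf did overlap between the groups, so their separation here depends on the mean of the other genes. Fancg stood at 2.40 and 1.74 in Ctrl and at 2.78 and 2.54 in AZ20, a difference of 0.59 (exact permutation p = 0.333). Fancc stood at 0.84 and 0.74 in Ctrl and at 0.17 and 0.10 in AZ20, a difference of -0.66 that was nearly the same in both pairs, -0.67 and -0.65 (exact permutation p = 0.333). Fance (-1.90 and -1.56 in Ctrl, -2.04 and -2.16 in AZ20) and Fancf (-1.71 and -1.94, then -2.04 and -2.09) were lower in AZ20 by this measure, each with an exact permutation p of 0.333, although both had only a few reads. The values of Fancl, Fanca and Fancm overlapped between the groups, with differences of -0.05, 0.03 and -0.04. These quantities are linked, since each member enters the mean of the others, and the size for a gene near 0 depends on the pseudocount. With pseudocounts of 0.1 and 0.01 the difference of Fancb against the other core members was 2.82 and 5.16. In the ID complex, Fancd2 minus Fanci was 1.45 and 1.84 in Ctrl and 1.29 and 1.43 in AZ20.

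**Figure D3:**
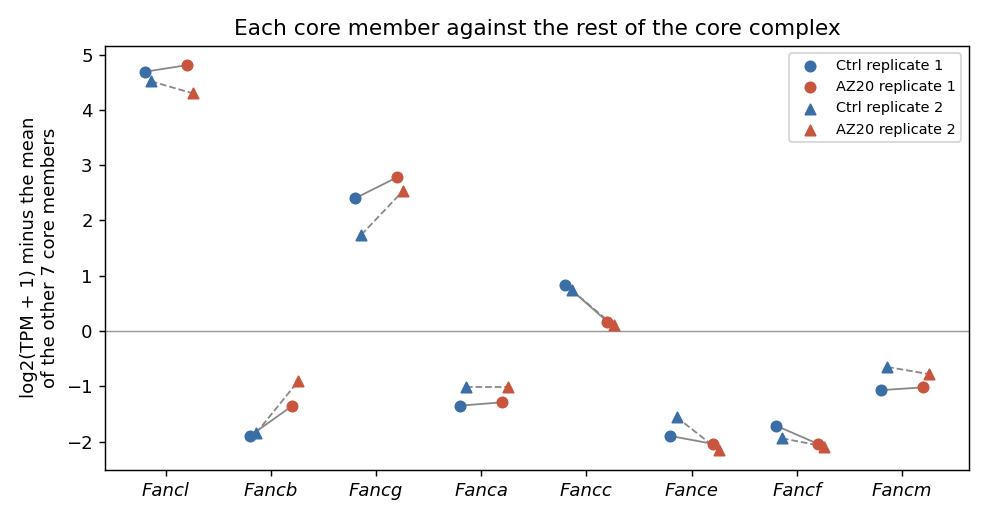
Each of the 8 core members minus the mean log2(TPM + 1) of the other 7 in the same library, with lines joining the Ctrl (blue) and AZ20 (red) libraries of pair 1 (circles, solid) and pair 2 (triangles, dashed). Fancb and Fancg were higher with AZ20 in both pairs, and Fancc was lower in both, with differences of -0.67 and -0.65.

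A measure free of the pseudocount is the share of a gene's reads that lie in the AZ20 libraries, which hold 56.5% of all reads. For Fancb the share was 97.1% (95% exact interval 89.8 to 99.6%, or 84.7 to 99.9% on the next smaller scale of reads). Both intervals cover counting error only. Across 438 X-linked genes with at least 20 reads the median share was 99.6%, and 24.4% of them had a lower share than Fancb. Across 12499 autosomal genes the median was 57.6%, and 99.2% had a lower share than Fancb. The autosomal members with at least 20 reads ran from 46.8% for Fancc to 67.9% for Fancg. The quartiles were 97.3 and 100% for X-linked genes, just above Fancb, and 53.5 and 63.3% for autosomal genes, with Fancc below and Fancg above them. The requirement of 20 reads can be met through the AZ20 libraries alone.

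**Figure D4:**
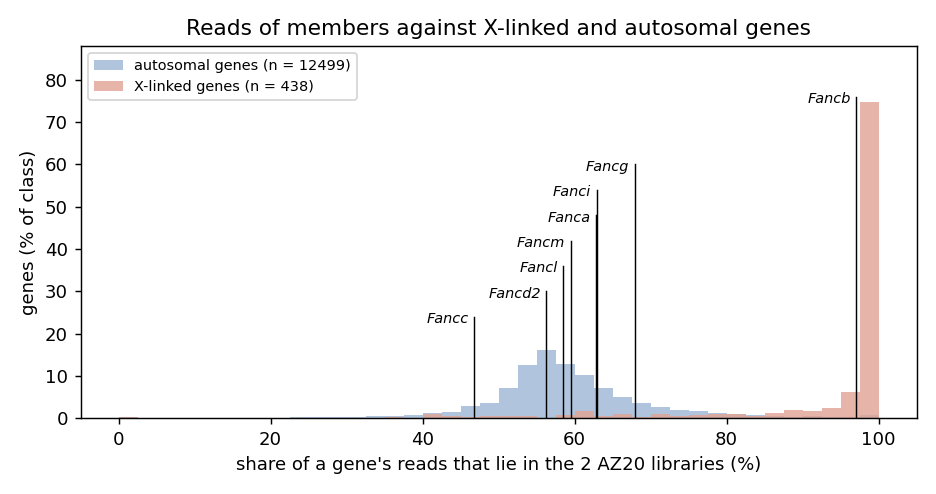
Share of a gene's reads that lie in the AZ20 libraries (%, horizontal) for 12499 autosomal (blue) and 438 X-linked (red) genes, as a percentage of each class (vertical), with black lines at 8 members. Fancb at 97.1% lies beside the X-linked peak, and the 7 autosomal members lie between 46.8 and 67.9%.

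Along the X chromosome, the 3 nearest genes on each side of Fancb that were measured under their GENCODE name differed in level. Annotated genes not measured under that name were passed over. Mospd2, whose start lies 217 bases from that of Fancb, was at 0 and 0.086 TPM in Ctrl and at 1.84 and 0.416 TPM in AZ20 (difference in log2(TPM + 1) 0.95, adjusted p = 0.605 by limma). Both genes of this pair were thus higher in both AZ20 libraries, but Mospd2 was higher in AZ20 replicate 1 and Fancb in replicate 2. Gemin8, a gene of the SMN complex, was at 0 and 0.189 TPM in Ctrl and at 5.21 and 6.18 TPM in AZ20, and it was called higher (difference 2.61, adjusted p = 0.00411 by limma). Mospd2 and Gemin8 passed the filter on expression through AZ20 alone, so they were tested only because they were higher there.

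The levels of the other neighbours ranged from 0 to those of Asb9. Asb9, a SOCS box gene, was at 0.351 and 0.615 TPM in Ctrl and at 2.5 and 0.743 TPM in AZ20 (adjusted p = 0.707 by limma), and Gpm6b was at 0 in Ctrl and at 0.281 and 0.193 TPM in AZ20. Asb11 had 4 reads in AZ20 replicate 2 alone, and Glra2, a glycine receptor gene, was at 0 in all 4 libraries. The 4 neighbours with reads in more than 1 library were all higher in both AZ20 libraries than in either Ctrl library. The same held for 91.2% of the 341 X-linked genes tested, of which 289 passed the filter through AZ20 alone. Asb9 also passed the filter through AZ20 alone, and Gpm6b met the condition on reads through AZ20 alone. Glra2 and Asb11 had too few reads for a comparison.

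**Figure D5:**
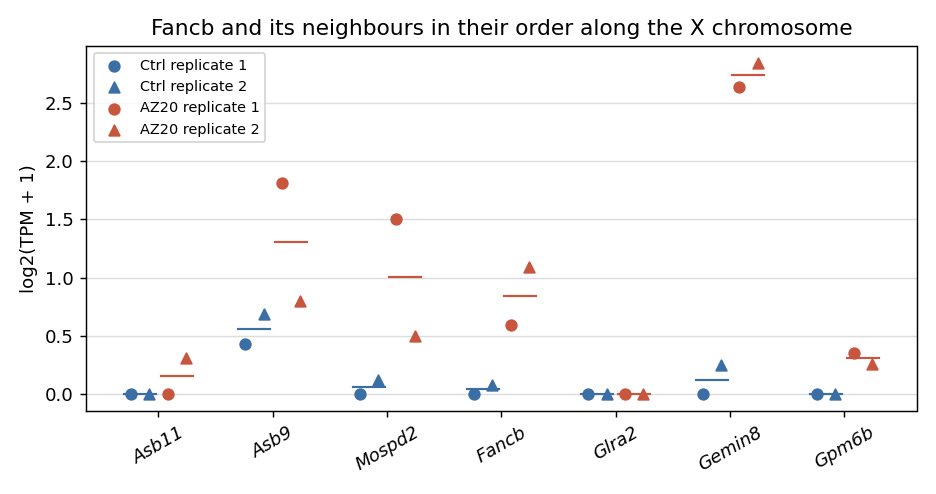
Levels as log2(TPM + 1) of Fancb and 6 X-linked neighbours, the nearest measured under their GENCODE name, in the order of their positions. Colours and symbols for groups and replicates are as in the plot of members, with lines at the group means. Gemin8 reached 5.21 and 6.18 TPM in AZ20, and Glra2 stayed at 0.

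The tested genes with levels most like those of Fancb over the 4 libraries, by the Euclidean distance of log2(TPM + 1), were Tceal8 (0.31), the chymotrypsin-like gene Ctrl on chromosome 8 (0.32), Mid1 (0.36), Tbc1d8b (0.36) and Kdm6a (0.40). All 5 passed the filter on expression through AZ20 alone, so that they were high in AZ20 by selection, and Fancb itself did not pass it. Kdm6a, a histone demethylase gene, was at 0 in both control libraries and at 0.98 and 1.04 TPM in AZ20. The distance describes 4 values and was not tested.

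The other genes of the pathway were taken from a list of 34, of which 33 were tested and only Fan1 stayed below the filter. All were autosomal except Cenpx, whose row was not placed on a chromosome. None was called higher, against 2.28% of all tested genes and 0.101% of the autosomal ones. None was called lower, against 0.0485% and 0.0503%. The differences in log2(TPM + 1) were above 0 for 14 and below 0 for 19. Their median was -0.05, beside 0.07 over all tested genes and 0.06 over the autosomal ones. By limma 2, Ube2t and Mus81, had an unadjusted p under 0.05, against 9.16% of all tested genes and 6.34% of the autosomal ones.

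Several partners of the members were far more abundant than the members, and those named here were chosen after their levels were seen. Ube2t, which encodes the ubiquitin-conjugating enzyme that works with FANCL, was at 1176 and 1742 TPM in Ctrl and at 2096 and 2008 TPM in AZ20 (difference 0.52, 95% interval 0.06 to 0.98, adjusted p = 0.471 by limma). Both AZ20 values were higher. Cenps and Cenpx, which encode the histone-fold partners of FANCM, had Ctrl means of 243 and 478 TPM, against 0.922 TPM for Fancm itself. They were matched through the older symbols Apitd1 and Stra13, and Stra13 has also been used for Bhlhe40, which has a row of its own. Usp1, which encodes the enzyme that removes ubiquitin from FANCD2, was at 162 and 154 TPM in Ctrl and at 148 and 175 TPM in AZ20, where the groups overlapped.

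Among the direct partners, Faap24, which binds FANCM, was at 12.3 and 13.4 TPM in Ctrl and at 9.92 and 5.88 TPM in AZ20 (difference -0.67, adjusted p = 0.554 by limma). Its AZ20 values were lower, whereas Faap100, the partner of FANCB, overlapped between the groups at 3.84 and 4.04 TPM in Ctrl and 3.96 and 2.26 TPM in AZ20. Faap20, the partner of FANCA, also overlapped, at 11.2 and 26 TPM in Ctrl and 25.8 and 17.4 TPM in AZ20. The partners of Fancb were thus measured at 3.94 TPM (Faap100) and 51.3 TPM (Fancl) on average in Ctrl, where Fancb itself was at 0.0293 TPM.

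The largest difference on the list was that of Mus81, a structure-specific nuclease gene, at 8.55 and 6.22 TPM in Ctrl and at 4.69 and 1.95 TPM in AZ20. Both AZ20 values were lower, by 1.02 on the log2 scale (difference -1.02 ± 0.37 SE, 95% interval -1.90 to -0.14), with an adjusted p of 0.45 by limma. With the replicate block Mus81 was called lower (adjusted p = 0.0282), as were 0.223% of all tested genes, but it was not called in the other fits with the block, voom on recovered reads (adjusted p = 0.148) and limma without the filter (adjusted p = 0.262). Without AZ20 replicate 2 its difference was -0.54, and without AZ20 replicate 1 it was -1.49.

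Atr, which encodes the kinase that AZ20 inhibits, was at 93.2 and 85.1 TPM in Ctrl and at 80.9 and 87.5 TPM in AZ20 (difference -0.08, 95% interval -0.49 to 0.33, adjusted p = 0.945 by limma), and the groups overlapped. Its partner Atrip was at 7.13 and 9.94 TPM in Ctrl and at 6.28 and 5.10 TPM in AZ20 (difference -0.50, adjusted p = 0.685 by limma). Rev3l, the catalytic subunit gene of translesion polymerase zeta, overlapped between the groups (difference -0.36, adjusted p = 0.82 by limma). ATR transcript levels carry no measure of kinase activity.

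The promoter windows of 9 members, from 250 bases before to 50 after the RefSeq start, held a median of 19 CpG, beside 7 over all 27025 promoters of that length. The number did not follow the transcript level, since Fancl, the highest member, had 3 CpG and the barely detected Fance and Fancf had 24 and 25. The RefSeq windows of Fancl, Fancc and Fanci lie wholly inside the GENCODE genes and 255 of the 300 bases of that of Fancg do, so that they may not be at the start that GENCODE gives. CCAAT occurred in 6 of the 9 windows, against 37.9% of all promoters, and GGGCGG in 6 of 9, against 35.9%. TGACGTCA and CNGTTA, the letters of CRE and MYB motifs, occurred in 0 of the 9, against 1.88% and 23.2% of all promoters. Fancd2 was not among the matched windows.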

How the data were processed

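The authors used Trimmomatic 0.39 for trimming, STAR 2.5.4b for unique alignment to GRCm38 and featureCounts 2.0.1 with refGene for counting, and deposited TPM per library. The strand setting is not given in the sources used here. Unique alignment can lower genes that share sequence. Reads were recovered from the TPM, since each gene has the same length in every library. Of 16857 genes above 0, 16843 gave whole reads directly and the other 14 did so when only whole lengths were tried, and the scale of each gene was chosen to make its length whole within 0.02 bases and close to its annotated length. Log2(TPM + 1) was fitted with limma 3.58.1 (R 4.3.3) with an intensity trend. Python 3.11.15 with scipy 1.17.1, numpy 2.4.6 and pandas 2.3.3 gave the other values. Per the methods each mouse gave cells to both conditions. That equal replicate numbers mark the same mouse is not stated and was assumed for the pairs (correlation of deviations 0.229). Replicate numbers were a block in an alternative.

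The members, gene lists and tests were chosen with earlier results of these data known. Named were all members, the 5 pathway genes with the largest change, called genes and Atr, the 3 neighbours on each side of Fancb and the 5 genes nearest in level. Cenps, Cenpx, Usp1, Faap100, Faap20 and Fan1 were named after their values were seen. The scripts were tested on simulated data. Blank lines (92) were left out. Positions are from GENCODE.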

Additional observations from a re-analysis of the deposited data

How the results depend on the processing

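No member was called in either direction in any fit that included it. Fanca, Fancb, Fance and Fancf were below the filter in the main fit and could not be called there. Fancb entered only the fits without the filter, with or without the block, voom at 10 reads, and the fit without AZ20 replicate 1. Fancb differed by 2.79 and 4.88 in log2 with pseudocounts of 0.1 and 0.01, and by 4.39 with voom on genes with at least 10 reads. Against the other core members it differed by 2.82 and 5.16 with those pseudocounts. Without 1 library in turn, Fancb differed by 0.56 to 1.05 and against the core by 0.51 to 0.96. The replicate block pairs libraries of equal replicate number. With it, 424 genes were called higher and 23 lower (447 in all, 240 without it), and 1 pathway gene, Mus81, was called lower. The block changed no call of a member in the fit, which with the filter left out Fancb. The genes called lower numbered 5, but 1 without the filter, 1 with voom on recovered reads, 1 with voom at 10 reads (106 higher, 107 in all), 11 without the filter and with the block, and 3 with voom and the block. Without 1 library in turn, 0 to 184 genes were called higher, 0 to 1 lower and 0 to 185 in all, and 0 without either AZ20 replicate. Without Ctrl replicate 2 the total was 159. Fancd2, near 0, changed sign with quantile normalization (-0.19), voom (-0.01, and -0.01 at 10 reads), voom with the block (0.00) and without 1 library (-0.06 to 0.09). Fancm did so with quantile normalization (-0.10) and without 1 library (-0.08 to 0.33), and Fancl without 1 library (-0.06 to 0.29). Quantile normalization moved the median of all genes by -0.14, and under it Fancc and not Fancg had an unadjusted p under 0.05. Without 1 library, Fancg differed by 0.41 to 0.94, Ube2t by 0.24 to 0.80 (lowest without Ctrl replicate 1) and Faap24 by -1.01 to -0.34 (nearest 0 without AZ20 replicate 2). Fance, at -0.17, differed by -0.92 and -2.37 with pseudocounts of 0.1 and 0.01. The causes were not tested. Voom at 10 reads, voom with the block, and the block without the filter were chosen after the data were seen. Fancb, Fance and Fancf had only a few reads in Ctrl.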
